A study of Mus musculus with 40 samples.

Results

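Intergenic long noncoding RNAs (lincRNAs) were examined in the cerebral cortex and cerebellum of C57Bl/6 mice with a 1-colour Agilent array that carried 16181 probes for them among 55681 probes in all. These probes were selected by name: a control type of 0 and a name made of a chromosome interval with the suffix F (forward strand) or R (reverse strand), and 0 probes had a name starting with lincRNA. Another 13 probes named for an interval but without a suffix were left out. The intervals, written in the coordinates of the mm9 mouse build, made up 4607 stranded regions (2318 forward and 2289 reverse) at 3540 sets of coordinates, with 1 to 10 probes per region (median 3) and a median length of 10676 bases. Because regions overlap, they merged into 3362 loci on 1 strand each, so neighbouring regions are not independent transcripts. Values on every array were obtained for 16151 of the probes, and 30 were left out because of flagged spots. Probes with a gene symbol (29472 with values) served as the comparison.

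The study compared aging and chronic oxidative stress in 10 groups of 4 arrays, 40 arrays in all, with the 4 arrays of a group from 4 mice. Both brain regions were taken from wild-type mice of 2 months and 29 months on a normal diet (36 mg α-tocopherol per kg), 29-month-old wild-type mice on an α-tocopherol-deficient diet, and 29-month-old Ttpa-/- mice on a deficient or a supplemented diet (600 mg α-tocopherol per kg). The product of Ttpa is a transfer protein by which the liver exports α-tocopherol, the main form of vitamin E, and the Ttpa-/- mice carry the loss in every tissue. Whether cortex and cerebellum came from the same animals is not given in the sources used here. Oxidative stress below means the contrast of deficient-diet Ttpa-/- mice to wild-type mice of 29 months given the normal diet, and it therefore joins a genotype with a diet. All signals are given on 1 scale, log2 of the processed signal minus the 75th percentile of the same array. In homogenised tissue, fewer cells of a type and less RNA per cell cannot be told apart.

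LincRNAs are transcribed from stretches between protein-coding genes, are often spliced and polyadenylated like messenger RNAs, and do not carry a long conserved reading frame. They are known for low abundance and for tissue-restricted expression, and in the brain many of them lie beside genes for transcription factors of regional identity. Roles described for individual lincRNAs include scaffolding of chromatin regulators, control of a neighbouring gene and structural roles in nuclear bodies, while many have no described role. Their turnover in the nucleus involves the RNA exosome.

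The sequences of 60-base probes for the regions on which the results turn are given here, each in the sense of the region's own strand, with the polyadenylation hexamer AATAAA or ATTAAA in capitals where the probe holds one. The first set is from regions that were much higher in cerebellum than in cortex. The second is from the regions that were higher in aged mice in both brain regions, with a pair of probes that are nearly alike, and from the region with the most probes called for the diet. The last is from a very bright region, where base composition is of interest. They were picked after their values were seen.
A_30_P01030541, chr8:90059137-90059196, forward, near Cbln1: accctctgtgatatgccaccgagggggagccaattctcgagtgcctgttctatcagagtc
A_30_P01023866, chr8:90059204-90059263, forward, near Cbln1: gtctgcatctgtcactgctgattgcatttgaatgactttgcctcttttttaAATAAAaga
A_30_P01021540, chr8:90049267-90049326, forward, near Cbln1: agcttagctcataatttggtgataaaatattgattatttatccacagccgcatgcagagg
A_30_P01020912, chr10:3231670-3231729, forward, near Cnksr3: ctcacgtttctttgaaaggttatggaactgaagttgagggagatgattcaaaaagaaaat
A_30_P01029918, chr10:69682331-69682390, forward, at 2310015B20Rik: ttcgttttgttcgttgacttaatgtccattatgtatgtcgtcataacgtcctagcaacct
A_30_P01019537, chr1:175653663-175653722, reverse, at AI607873: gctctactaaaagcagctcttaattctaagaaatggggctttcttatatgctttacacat
A_30_P01021884, chr1:175653734-175653793, reverse, at AI607873: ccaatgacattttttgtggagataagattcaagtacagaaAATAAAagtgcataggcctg
A_30_P01027543, chr1:175706588-175706647, reverse, toward Ifi204: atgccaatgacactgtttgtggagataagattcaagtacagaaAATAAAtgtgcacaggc
A_30_P01024661, chr7:111530612-111530671, reverse, at Trim30c: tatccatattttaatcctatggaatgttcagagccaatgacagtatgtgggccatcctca
A_30_P01030187, chr13:70759947-70760006, reverse, near BC018507: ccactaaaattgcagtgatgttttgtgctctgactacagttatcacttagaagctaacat
A_30_P01031448, chr14:78936616-78936675, forward: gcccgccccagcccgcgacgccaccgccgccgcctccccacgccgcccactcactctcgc

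Of all intergenic probes, 6.28% held AATAAA or ATTAAA on the probe's strand, against 17.4% of gene-symbol probes. The reverse complements TTTATT or TTTAAT, which overlap other AT-rich words, were held by 5.14% and 6.76%. Median GC content was 45% for the intergenic probes and 41.7% for the gene-symbol probes. A hexamer in a probe is a match of letters only, and its absence says nothing about the end of the transcript.

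The arrays filled 5 slides of 8, and each slide held 2 groups. Aging in cortex, the diet in wild-type cerebellum and the diet in Ttpa-/- cerebellum were therefore compared within 1 slide, whereas in every other comparison slide and condition cannot be told apart. Between arrays of the same group the correlation of intergenic signals was 0.920 to 0.976, and that of all probes 0.973 to 0.993. Cortex markers were higher in cortex for 5 of 6 probes, Neurod2 being the exception, and all 10 cerebellar markers were higher in cerebellum. A Ttpa probe was well above background on 4 of 4 arrays of each wild-type cerebellar group (-4.29 to -2.76) and on 0 and 1 of 4 arrays of the Ttpa-/- cerebellar groups (-7.04 to -5.00). In cortex that probe was above background on at most 1 array of a group, wild-type groups included, so the cortex genotype labels could not be checked with it. Another Ttpa probe was above background on 0 arrays of every wild-type group, so it could not check the genotype. It was above background on 1 array of the Ttpa-/- cerebellum on the deficient diet, where its highest value was -2.67.

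Intergenic probes were mostly dim. On 4 of 4 arrays of at least 1 group, 6176 intergenic probes (38.2%) were well above background, against 21609 gene-symbol probes (73.3%). These probes covered 2881 of the 4607 regions and 2223 of the 3362 loci. On all 40 arrays 3379 intergenic probes were above background, and 5451 were above background on 0 of 40 arrays.

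**Figure D1:**
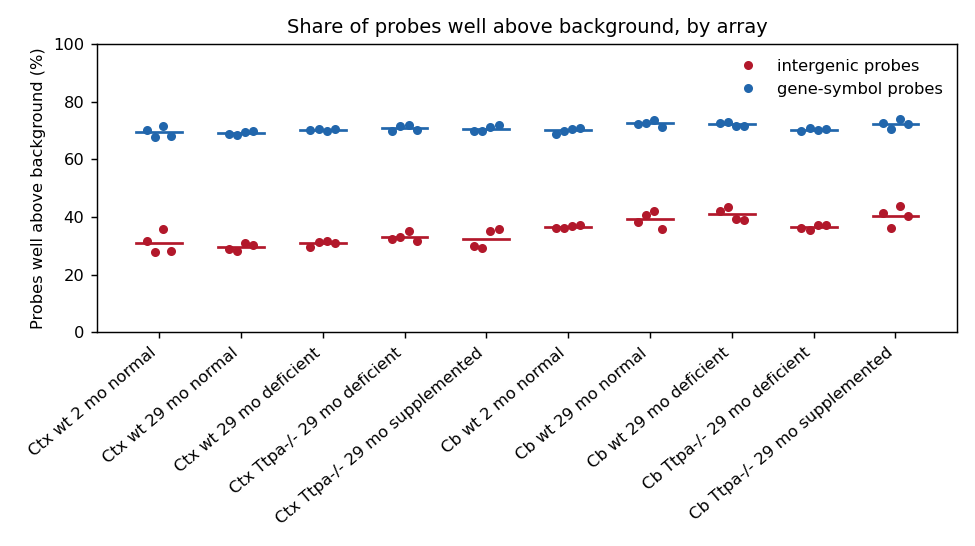
Percentage of intergenic (red) and gene-symbol (blue) probes well above background on each array, by group; points are the 4 arrays and lines their mean. Intergenic shares lay between 27.9% and 35.8% on cortical arrays and between 35.6% and 43.8% on cerebellar arrays.

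More intergenic probes were measurable in cerebellum than in cortex. The share per array lay between 27.9% and 35.8% in cortex, with group means from 29.6% to 33.0%, and between 35.6% and 43.8% in cerebellum, with group means from 36.5% to 41.0%. The brain regions overlapped only at the edges of these ranges. Over probes detected on 4 of 4 arrays of a group, 4629 were found in both brain regions, 1396 in a cerebellar but in no cortical group, and 151 in a cortical but in no cerebellar group. Shares of gene-symbol probes were 67.7% to 73.9% over the same arrays, with group means of 69.2% to 70.9% in cortex and 70.0% to 72.5% in cerebellum. Counts found in a single brain region were not taken for gene-symbol probes. Before scaling, cerebellar arrays were also brighter, with 75th percentiles of 497 to 925 against 365 to 549 in cortex. The part of this brightness in the intergenic counts was not tested. Among probes above background on all 40 arrays, group means of the median signal ranged from -1.63 to -1.33 for intergenic and from 0.78 to 0.86 for gene-symbol probes.

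Of the 1067 coordinates with probes on both strands, 527 had a detected probe on both strands, 425 on 1 strand only (203 forward, 222 reverse) and 115 on neither. The one-stranded share of detected coordinates was thus 44.6%. It changed with the definition of detection, being 11.3% where 1 of the 40 arrays sufficed and 63.2% where all 40 were required.

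Of the 6 regions with the highest mean signal over the 40 arrays, 4 are described here. In chr14:78924115-78938125_F and chr12:73838608-73862621_R the bright probe had a GC content of 83.3% and 78.3% and a mean signal of 7.56 and 7.12. The bright probe of chr17:39982023-39983277_F had 75% GC and a mean of 7.32, and that of chr17:17481706-17482457_R had 50% GC and a mean of 7.12. The sequence of the chr14 probe given above is composed mostly of C and G. The region's other probes gave signals between -6.90 and -3.26, the last from a probe of 81.7% GC that was above background on all 40 arrays, and the remaining ones were above background on 0 to 14 arrays. In both chr17 regions every probe was above background on all 40 arrays, at 4.29, 4.68 and 7.32 in the first (68.3%, 60% and 75% GC) and at 6.00, 6.58 and 7.12 in the second. Levels of different probes depend on the affinity of each and are given as a description.

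LincRNAs differed most between the brain regions. At 2 months 739 intergenic probes were higher and 1399 lower in cortex than in cerebellum, of 5261 tested (14% and 26.6%), where 19.1% and 19.3% of all tested probes were higher and lower. At 29 months 496 were higher and 1318 lower of 5377 tested (9.22% and 24.5%), with 15.8% and 17.8% of all tested probes. Gene-symbol probes divided the other way, with 4339 higher and 3566 lower in cortex at 2 months and 3805 and 3355 at 29 months. A probe was tested where it was well above background on 4 of 4 arrays of either group, and was called at a Benjamini-Hochberg adjusted p under 0.05 and a fold over 1.5 by limma. The 2 ages share no arrays, and 418 probes were higher in cortex at both (56.6% of the 2-month list, 84.3% of the 29-month list), 1104 were lower at both (78.9% and 83.8%), and 0 changed direction. Such overlaps were counted for intergenic probes only, here and below.

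**Figure D2:**
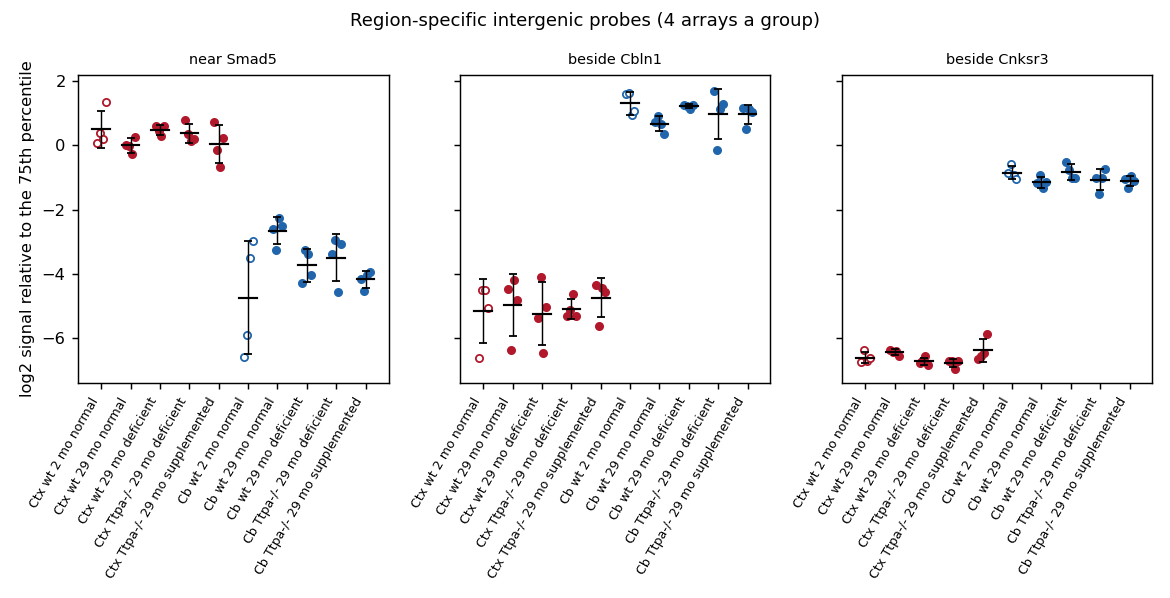
Log2 signal relative to the 75th percentile of the array for 3 intergenic probes in all 10 groups; points are arrays, bars the mean ± SD, red cortex, blue cerebellum, open symbols 2 months. The region near Smad5 was high on all 20 cortical arrays, and the regions near Cbln1 and Cnksr3 on all 20 cerebellar arrays.

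Regions higher in cortex lay beside genes of several kinds. The region chr13:56851404-56851796_R, 7767 bases from a probe for Smad5, a transducer of bone morphogenetic protein signals, gave 0.07, 0.39, 0.21 and 1.35 in 2-month-old cortex and -6.59, -5.91, -3.52 and -2.99 in cerebellum. Its difference was 5.26 (SE 0.49, adjusted p = 4.23e-11), and the 3 probes of the region were all called. Smad5, read from the opposite strand, was 0.86 lower in cortex, so the region and the gene differed in opposite directions. Overlapping regions chr3:137736327-137752677_F and chr3:137742666-137744470_F, opposite to Mttp, which loads lipid onto lipoproteins, differed by 4.86 and 4.71 and are at least 9.34-fold and 9.16-fold. Mttp differed by 0.47, under the fold required.

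At 29 months chr19:59498190-59531390_R was at least 5.52-fold higher in cortex (log2 difference 3.91, SE 0.60, adjusted p = 1.44e-06). It runs opposite to Emx2, a homeodomain factor of the dorsal forebrain, which was 4.80 higher. The arrays read -3.14, -2.59, -2.58 and -2.0 in cortex and -6.10, -6.91, -6.14 and -6.79 in cerebellum. The region chr7:77555482-77634858_F, 58550 bases from a probe for the nuclear receptor Nr2f2, was at least 14.2-fold higher for 1 of its 2 probes, and Nr2f2 was 1.97 higher. The region chr10:92238941-92283837_R was at least 7.25-fold higher for its single probe, while a probe for Gm872 inside it was not above background.

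The largest cerebellar excess was in chr8:90000619-90061169_F, 7784 bases from a probe for Cbln1 and on the opposite strand. Cbln1 is a secreted synaptic organiser of cerebellar granule cells. The first probe shown above gave 1.60, 1.62, 0.93 and 1.07 in 2-month-old cerebellum and -6.62, -4.51, -4.51 and -5.06 in cortex, where 0 of 4 arrays were above background. Cerebellum was at least 52.8-fold higher (log2 difference, cortex minus cerebellum, -6.48, SE 0.45, adjusted p = 3.63e-14), and all 5 probes were called at both ages. The neighbouring, overlapping region chr8:89996710-90049453_F differed by -5.39 and -5.49 at 2 and 29 months. Cbln1 differed by -6.02 and -5.27, so gene and both regions lay on the same side.

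In chr10:3231337-3231802_F, 3939 bases from Cnksr3 on the same strand, the signal was -0.85, -0.57, -0.92 and -1.05 in 2-month-old cerebellum and -6.76, -6.38, -6.73 and -6.63 in cortex. Cnksr3 encodes a scaffold protein. The region was at least 11.95-fold higher in cerebellum (-5.78, SE 0.15, adjusted p = 2.23e-25), its 3 probes were all called, and Cnksr3 differed by -3.46. The probes of chr10:69669025-69686275_F (-5.37) and, at 29 months, chr10:69679644-69682458_F (-5.47, at least 37.4-fold) overlap the transcript 2310015B20Rik, which differed by -5.14 and -4.93. Cnksr3 and 2310015B20Rik thus lay on the same side as the regions.

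Both strands were called in 110 regions at 2 months, in the same direction in 71 of them. In chr13:44217172-44224947 they went apart: the forward probe was 2.78 log2 units lower in cortex (-0.93, -0.77, -1.13 and -0.65 against 1.96, 2.14, 1.89 and 1.67 in cerebellum) and the reverse probe 2.75 higher (0.22, -0.08, -0.12 and 0.34 against -2.30, -3.17, -2.96 and -2.22). The reverse strand was not uniform, since its other tested probe differed by -2.61. In chr1:42689799-42749799, 6300 bases from Pou3f3, a POU transcription factor of the nervous system, the forward and reverse probes were higher in cortex by 3.11 and 2.41, and Pou3f3 by 1.02. The region chr6:31267612-31293337 was likewise higher in cortex on both strands (2.38 and 3.03), and chr16:23992037-24001037, 26818 bases from a probe for the repressor Bcl6, was lower on both strands (-2.33 and -2.26) with a Bcl6 difference of -1.28.

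Of the 4607 regions, 667 contained a gene-symbol probe, 1189 lay within 10 kb of one, 2220 lay over 10 to 100 kb away and 531 further. For regions with a probe called higher in cortex at 2 months, the nearest tested gene was called the same way in 33 of 71 cases (46.5%) where it lay inside, 22 of 93 (23.7%) within 10 kb and 51 of 180 (28.3%) at over 10 to 100 kb, where 21.2% of all tested gene-symbol probes were higher. For those lower in cortex it was so in 55 of 99 (55.6%), 47 of 218 (21.6%) and 67 of 226 (29.6%), where 17.4% of gene-symbol probes were lower. Outside the region, up to 100 kb, the share thus lay nearer to that of all gene-symbol probes. At over 100 kb it was 10 of 25 (40%) for regions higher and 4 of 34 (11.8%) for regions lower in cortex. Other tested probes of the same region were called the same way in 71.2% of cases at 2 months and 72.7% at 29 months.

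Aging changed few intergenic probes. In cortex 12 were higher and 27 lower at 29 than at 2 months, of 4227 tested (0.284% and 0.639%), where 1.59% and 0.499% of all tested probes were higher and lower. In cerebellum 57 were higher and 81 lower of 5480 tested (1.04% and 1.48%), against 3.99% and 1.04% of all tested probes. The split differed from that of gene-symbol probes, of which 401 rose and 100 fell in cortex and 1065 and 203 in cerebellum. Leaving out the second aged cortical mouse reduced the cortical count from 39 to 21, and leaving out the first 2-month-old cerebellar mouse reduced the cerebellar count from 138 to 91. With median scaling the cerebellar split became 33 higher and 86 lower. In cerebellum the age groups were on different slides, which cannot be told apart from age. Other probes of the same region were called the same way in 47.5% of cases in cortex and 47.6% in cerebellum.

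**Figure D3:**
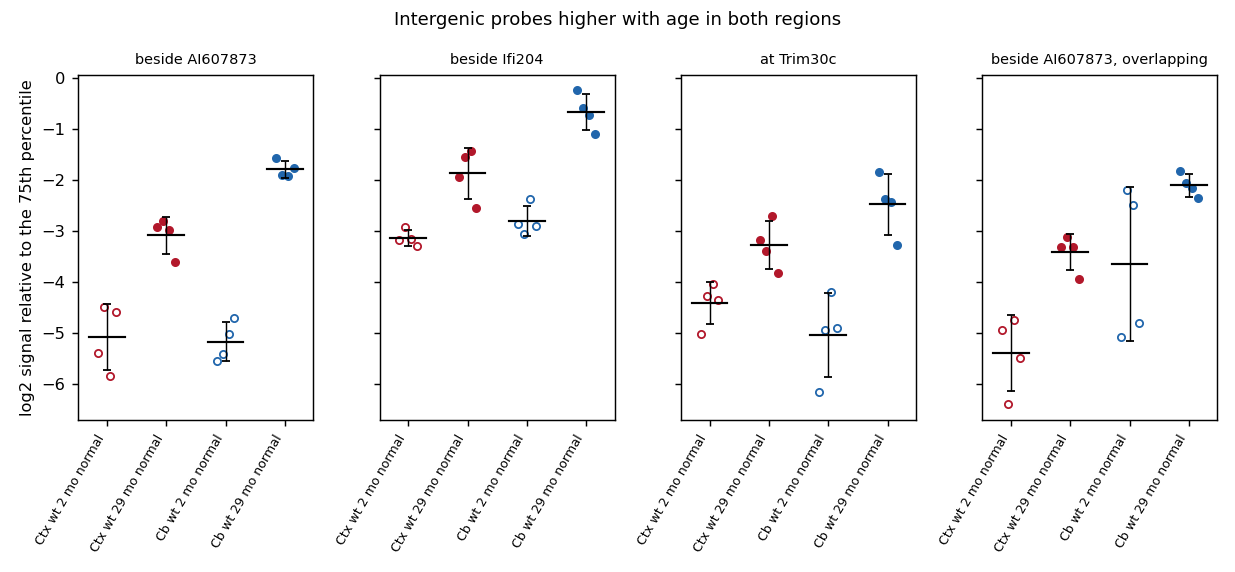
Log2 signal relative to the 75th percentile of the array for the 4 intergenic probes called higher at 29 months in both brain regions; points are arrays, bars the mean ± SD, red cortex, blue cerebellum, open symbols 2 months. Except for the overlapping region beside AI607873 in cerebellum, where 2 of the 4 young arrays lie among or near the aged ones, the ages did not overlap. Lack of overlap was part of the rule that picked named probes for single comparisons.

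In both brain regions 4 probes were higher with age, 33.3% of the cortical and 7.02% of the cerebellar list, and 0 were lower in both. They lay in 3 loci. The cortical rises depended on the background correction, since with normexp 0 intergenic probes were higher in aged cortex (10 lower), and with the 2 groups alone or the adjusted t-test 2 and 1 were. In chr1:175653557-175671940_R, which contains AI607873, the young cortical arrays gave -5.40, -4.48, -5.84 and -4.59 with 0 of 4 above background, and the aged ones -2.92, -2.80, -2.99 and -3.61. The aged group was at least 2.55-fold higher (log2 change 2.0, SE 0.33, adjusted p = 0.000167). In cerebellum the young arrays gave -5.55, -5.41, -5.01 and -4.70 and the aged ones -1.57, -1.91, -1.91 and -1.77, a change of 3.38 (SE 0.33, adjusted p = 3.31e-09) in which all 3 probes of the region were called. AI607873 was 3.46 higher in aged cerebellum, and in cortex it was above background on 3 of 4 aged and 0 of 4 young arrays and was not tested.

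The overlapping region chr1:175654606-175672031_R rose by 1.97 in cortex (at least 2.02-fold) and by 1.54 in cerebellum through one probe, and by 2.97 (at least 3.59-fold) through another in cerebellum, where all 5 probes were called. The young cerebellar arrays of the first probe split into -5.07 and -4.80 against -2.19 and -2.49, and its cerebellar call was lost in 5 of the 8 fits with 1 array left out. In chr1:175705225-175717250_R the young cortex gave -3.17, -2.92, -3.14 and -3.29 and the aged cortex -1.93, -1.55, -1.42 and -2.55. This was a rise of 1.26 (SE 0.25, adjusted p = 0.00172), and in cerebellum it was 2.14 (SE 0.25, adjusted p = 1.5e-07). Ifi204, an interferon-inducible gene of the same strand 27519 bases away, rose by 1.72 and 2.58. A pair of probes of these loci, whose sequences are given above, matched at 53 of 57 overlapping bases (93.0%), so cross-hybridisation between the loci is uncertain.

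In chr7:111526943-111545093_R, which contains Trim30c, a member of the tripartite-motif family, the cortical arrays read -5.01, -4.27, -4.04 and -4.34 at 2 months and -3.18, -3.38, -2.70 and -3.82 at 29 months. The change was 1.14 in cortex and 2.57 in cerebellum (SE 0.30 in both, adjusted p = 1.71e-07 in cerebellum), with the single probe of the region. The cortical call was lost with median scaling and without 3 of the 8 arrays in turn. The Trim30c probe was above background on at most 1 array of a group. The other aged groups, Ttpa-/- or on the deficient diet, lay above the young range with these 3 probes (at AI607873, toward Ifi204 and at Trim30c), except for 1 cortical Ttpa-/- mouse on the deficient diet at -4.67 with the first probe.

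Falls with age were found in each brain region. In chr3:21973306-21974266_R, which contains 2810416G20Rik, the young cortex gave 1.45, 1.40, 1.24 and 1.06 and the aged cortex 0.41, 0.06, 0.09 and 0.52. The probe fell by 1.02 (SE 0.12, adjusted p = 1.32e-06), 2810416G20Rik fell by 0.95, and the test of the difference between brain regions (cortical change minus cerebellar change, -0.73) was passed. That difference was above 0 for 20 and below 0 for 25 called intergenic probes of 4110 tested, against 0.502% and 1.11% of all probes tested, and with median scaling for 5 and 2. In aged cerebellum chr13:54397214-54407430_F fell by 2.32 (SE 0.34, adjusted p = 7.98e-06), from -2.72, -3.02, -3.13 and -3.49 to -5.47, -4.44, -4.74 and -6.98, and all 3 probes of that region were called. This region was above background on 0 of 20 cortical arrays.

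Other age changes rested on single probes. In cortex chr12:81221532-81232030_F rose by 1.38 through 1 of 2 probes, and chr3:125556184-125556476_R, chr6:134846715-134847933_R and chr13:28477490-28985604_R fell by 1.09, 1.0 and 0.99. In cerebellum chr11:22510175-22522025_F fell by 1.52, chr17:3291593-3309291_F by 1.44 (at least 1.83-fold) and chr12:16840919-16841568_F by 1.29 (at least 1.79-fold). The calls of chr13:28477490-28985604_R, chr17:3291593-3309291_F and chr12:16840919-16841568_F were lost in 5, 5 and 7 of the 8 fits with 1 array left out. Markers of choroid plexus moved beside these: 3 of 9 (Kcne2, Kl and Ttr) were lower in aged cerebellum, and their summed level was 3.12 to 7.98 at 2 months and 2.48 to 2.70 at 29 months. Of the 8 microglial markers 6 were higher in aged cerebellum and 2 in aged cortex, with summed levels in cerebellum of 6.38 to 6.49 at 2 months and 6.56 to 6.77 at 29 months. Striatal markers were lower in aged cortex for 3 of 8 (Adora2a, Penk and Rgs9), with summed levels of 6.21 to 6.53 at 2 months and 5.37 to 5.74 at 29 months. The part of these cell types in the results was not tested.

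In the oxidative stress contrast more intergenic probes were called than in aging, and most of them were higher. In cortex 348 were higher and 56 lower of 4599 tested (7.57% and 1.22%), against 3.14% and 1.6% of all tested probes. In cerebellum 349 were higher and 61 lower of 5465 tested (6.39% and 1.12%), against 2.67% and 1.79%. Gene-symbol probes divided into 420 higher and 295 lower in cortex and 276 higher and 430 lower in cerebellum. The median change over all tested probes of each kind was 0.12 for intergenic and -0.05 for gene-symbol probes in cortex and 0.11 and -0.05 in cerebellum. In cortex median GC content was 46.7% for intergenic probes called higher and 40% for those called lower, against 45% of those tested. For gene-symbol probes it was 45% and 40%, against 41.7%. In cerebellum it was 45% throughout for intergenic probes, and 43.3% and 45% against 41.7% for gene-symbol probes. The part of base composition in the counts was not tested. Both comparisons set one slide against another, and the slide cannot be told apart from the condition. In cortex the count was 237 without the first Ttpa-/- mouse on the deficient diet, and without a filter on dim probes the cortical split became 391 higher and 316 lower. Cell-type markers moved beside these counts: in cortex 2 of 8 striatal markers (Drd2 and Ppp1r1b) were higher, with summed levels of 5.37 to 5.74 in the wild type and 5.90 to 6.15 in the Ttpa-/- mice. In cerebellum 2 of 8 microglial (Aif1 and C1qa), 1 of 7 astrocyte (Gfap) and 2 of 7 oligodendrocyte markers (Mag and Mbp) were lower, with summed levels of 6.56 to 6.77 against 6.30 to 6.69, 7.68 to 8.01 against 7.57 to 7.82, and 7.80 to 8.07 against 7.27 to 7.67. The part of these cell types in the counts was not tested.

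**Figure D4:**
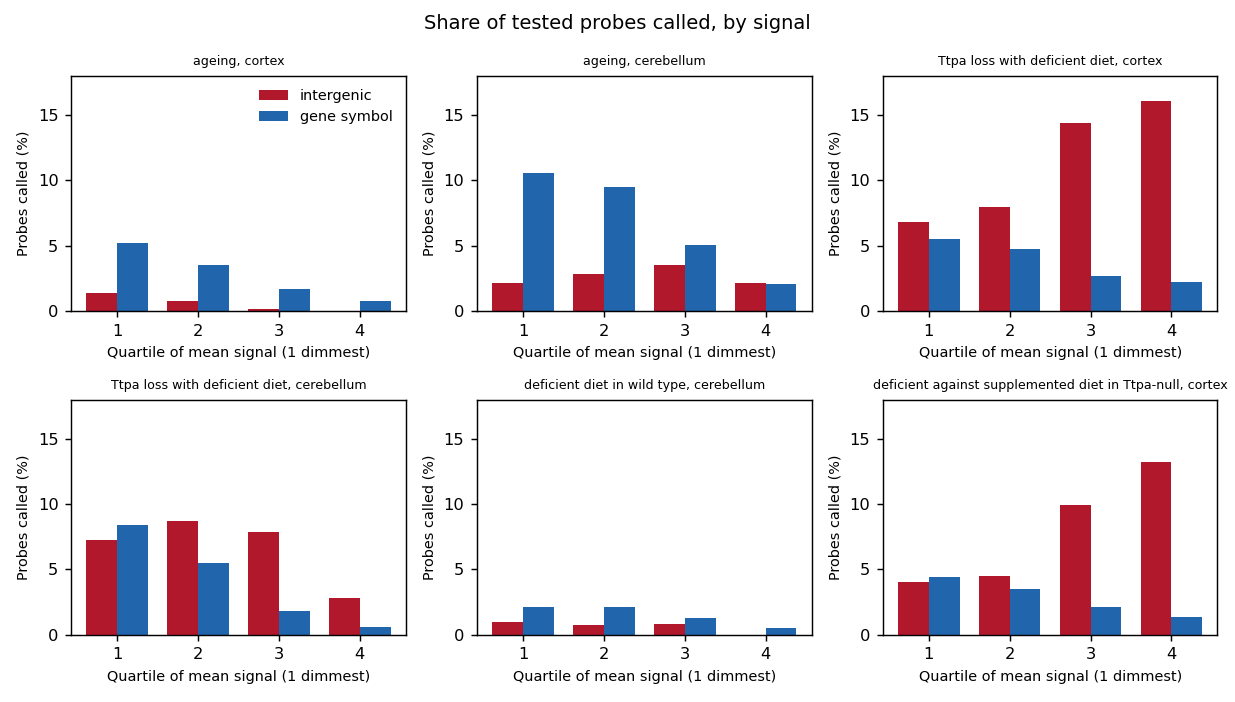
Percentage of tested intergenic (red) and gene-symbol (blue) probes called, by quartile of mean signal over all tested probes, from dim (1) to bright (4), in 6 comparisons. Under oxidative stress in cortex the intergenic share rose from 6.79% to 16.1% from dim to bright, while the gene-symbol share fell from 5.54% to 2.19%.

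In both brain regions the excess was smallest or absent among the dimmest probes. In cortex the called share of intergenic probes was 6.79%, 7.96%, 14.4% and 16.1% from the dimmest to the brightest quartile, against 5.54%, 4.73%, 2.66% and 2.19% of gene-symbol probes. In cerebellum it was 7.27%, 8.69%, 7.83% and 2.78% against 8.36%, 5.50%, 1.83% and 0.605%. In aging of the cerebellum gene-symbol probes had the higher called share in the 3 dimmest quartiles (10.6%, 9.49% and 5.05% against 2.14%, 2.82% and 3.49%).

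Of the called probes whose region held another tested probe, 80 of 250 in cortex and 61 of 240 in cerebellum had a second call of the same direction. Other tested probes of the same region were called the same way in 20.7% of cases in cortex and 14.7% in cerebellum, though 83.9% and 82.4% had the same sign. For regions called higher, pooled over the distances below, the nearest gene was called the same way at about the rate of all gene-symbol probes. Of the latter 2.08% were higher in cortex and 1.34% in cerebellum. In cortex it was so for 3 of 37 genes inside (8.11%), 0 of 76 within 10 kb and 1 of 105 over 10 to 100 kb away. In cerebellum it was so for 0 of 31, 1 of 76 and 2 of 130. For regions called lower it was so for 2 of 9, 0 of 10 and 0 of 13 in cortex. In cerebellum the lower regions gave 2 of 12, 0 of 5 and 1 of 26. Of all gene-symbol probes 1.46% were lower in cortex and 2.09% in cerebellum. Between cortex and cerebellum, which share no arrays, 55 probes were higher in both, 15.8% of each list, 3 were lower in both, and 2 went opposite ways. This overlap was not counted for gene-symbol probes.

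In cortex the largest rises were found in chr19:55715078-55776694_R (1.66, SE 0.47), chrX:90997595-91009570_F (1.61, SE 0.45), chr16:50715231-50841124_F (1.61, SE 0.26) and chrX:50400250-50410825_F (1.56, SE 0.28). For chr16:50715231-50841124_F the Ttpa-/- arrays gave -2.03, -2.06, -2.12 and -2.59 and the wild-type arrays -4.04, -4.05, -3.96 and -3.17 (adjusted p = 0.000137). The Ttpa-/- mice on the supplemented diet lay with the wild type in this region, at -3.22, -3.30, -3.60 and -3.88. Apart from chrX:90997595-91009570_F, where 2 of 4 tested probes were called, each rested on 1 probe.

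Some falls in cortex held across whole regions. In chr5:35975265-35982561_F all 4 probes fell, by 0.73 to 1.12; the wild type gave 2.88, 2.91, 3.13 and 2.43 and the Ttpa-/- mice 1.30, 1.62, 1.71 and 2.26 (SE 0.23, adjusted p = 0.00148). In chr5:26333765-26338143_F all 3 probes fell, by 0.89 to 1.1, while Gm5067 inside it differed by -0.41 and did not pass. The regions chr19:58222540-58223077_F (-1.32, at least 2.15-fold) and chr8:19959345-20020379_R (-1.25) rested on 1 called probe each, and the former lost its call in 6 of the 8 fits with 1 array left out.

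In cerebellum chr6:67155508-67216941_R rose by 2.61 (SE 0.49, adjusted p = 0.000732). The wild type gave -2.81, -4.97, -5.13 and -4.92 and the Ttpa-/- mice on the deficient diet -2.0, -1.88, -1.87 and -1.65. The Ttpa-/- mice on the supplemented diet, hybridised on the same slide as the latter, gave -1.93, -2.09, -2.39 and -2.07. The regions chr5:106351376-106352151_F and chr2:180161459-180189542_R rose by 2.26 and 2.24 and by at least 2.82-fold and 3.12-fold, and a region near Celf4 by 2.61 and at least 3.25-fold. Each rested on 1 probe, and each was above background on 4 of 4 arrays of both Ttpa-/- groups.

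Falls in cerebellum also rested on 1 probe per region. In chr13:83867711-83878140_F, 92686 bases from Mef2c, a transcription factor of neurons, 1 of 6 tested probes fell, by 1.59 (SE 0.44). The wild type gave -2.87, -1.70, -2.21 and -3.48 and the Ttpa-/- mice -4.23, -4.56, -3.68 and -4.18. In chr7:144563845-144603732_R 1 of 5 tested probes fell by 1.33 and at least 1.75-fold, and in chr14:65436123-65436905_R by 1.34 and at least 1.09-fold. A last one, near 5430411K18Rik, fell by 1.54 and at least 1.03-fold, close to the limit of detection. Its call was lost in all 8 fits with 1 array left out, and that of chr14:65436123-65436905_R in 7 of 8.

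The Ttpa-/- mice on the supplemented diet were also set against the wild type on the normal diet, a comparison added after seeing the data. In cortex 3 intergenic probes were higher and 0 lower of 4267 tested, against 0.0354% and 0.0566% of all tested probes. In cerebellum 471 were higher and 45 lower of 5768 tested, against 3.34% and 1.57%. The cortical supplemented group lay on slide 2, and the deficient group on slide 3. In cerebellum both Ttpa-/- groups lay on slide 5 and the wild type on slide 4.

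**Figure D5:**
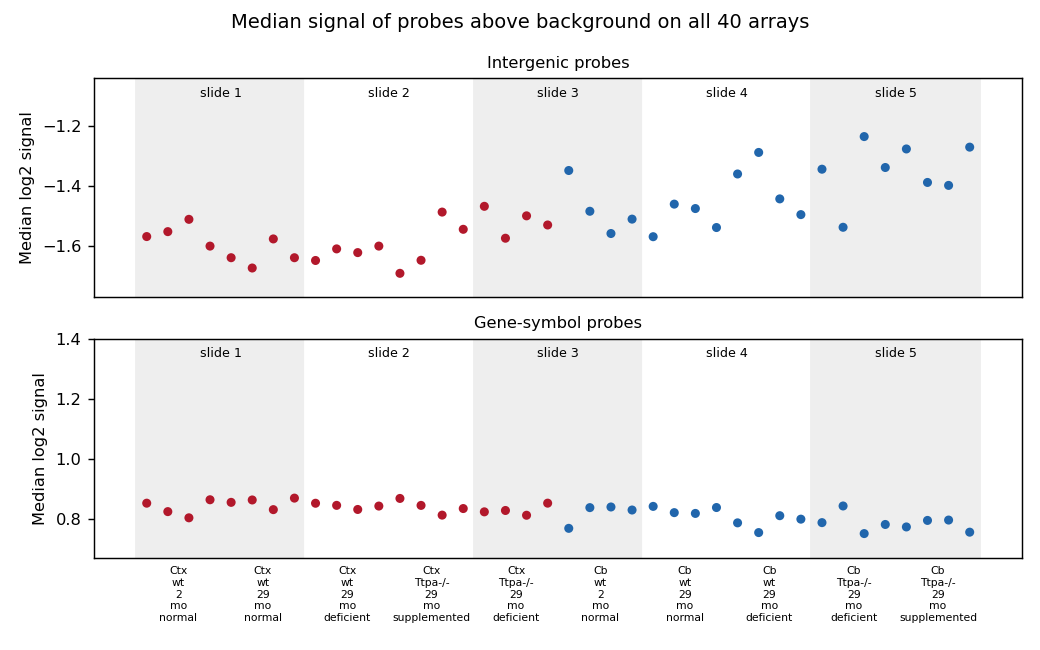
Median log2 signal, relative to the 75th percentile, of the intergenic and gene-symbol probes well above background on all 40 arrays, by slide; each point is an array. Group means lay between -1.63 and -1.33 for intergenic and between 0.78 and 0.86 for gene-symbol probes, and each slide holds 2 groups.

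The diet comparisons called few intergenic probes except in Ttpa-/- cortex, where slide and diet cannot be told apart. In wild-type cerebellum, on 1 slide, the deficient diet gave 37 higher and 11 lower of 5657 tested, against 0.458% and 0.816% of all tested probes, and gene-symbol probes gave 70 and 219. With the arrays scaled to their medians this split became 11 higher and 41 lower, and with quantile normalization 35 and 48, so no direction holds for this list. In wild-type cortex, across slides, 9 were higher and 5 lower of 4273 tested, against 0.117% and 0.106%. In Ttpa-/- cerebellum, within slide 5, deficient against supplemented diet gave 5 higher and 6 lower of 5566 tested, against 0.134% and 0.209%. In Ttpa-/- cortex, on slide 3 against slide 2, it gave 200 higher and 60 lower of 4646 tested, against 1.99% and 1.31%, beside 290 and 252 gene-symbol probes; with median scaling the intergenic split was 293 and 15.

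These diet counts moved with single mice. In wild-type cortex the 14 calls became 1, 6, 4 and 26 without the normal-diet mice 1 to 4, and 0, 2 and 97 without the deficient mice 1, 2 and 4. In wild-type cerebellum the 48 became 4, 13 and 27 without the normal-diet mice 1, 3 and 4 and 1, 17 and 116 without the deficient mice 1, 2 and 4. In Ttpa-/- cerebellum the 11 became 3, 32, 27 and 3 without the deficient mice 1 to 4 and 18, 4 and 4 without the supplemented mice 1 to 3. In Ttpa-/- cortex the 260 became 117 and 401 without the deficient mice 1 and 4.

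The region chr13:70745306-70837331_R had several probes that were higher on the deficient diet in wild-type mice. In cortex its first probe, shown above, gave -4.53, -4.30, -4.86 and -4.63 on the normal diet, with 0 of 4 arrays above background, and -2.06, -2.80, -2.84 and -3.60 on the deficient diet. It rose at least 2.80-fold (1.75, SE 0.29, adjusted p = 0.0110) and, in cerebellum within slide 4, by 1.24 (adjusted p = 0.0174). Of the 7 probes of this region 4 were called in cortex and 4 in cerebellum. The 5 probes called in either brain region all start between 70759818 and 70760089, and the other pair, elsewhere in the region, differed by -0.17 and 0.08 in cortex. With the compared groups alone or the adjusted t-test 0 intergenic probes were called for the wild-type diet in either brain region, and without the first deficient mouse the cortical call of the first probe was lost (1.50). In Ttpa-/- cortex on the deficient diet, set against the same normal-diet wild type, the 5 probes differed by 0.19 to 0.70 and 0 were called. Cell-type markers moved beside the wild-type diet calls. In cortex 0 of 8 striatal markers were called, with summed levels of 5.37 to 5.74 on the normal and 6.05 to 7.13 on the deficient diet. In cerebellum 1 of 7 oligodendrocyte markers (Mag) was lower, with summed levels of 7.80 to 8.07 against 7.02 to 7.83. Their part in the results was not tested.

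The remaining diet changes in the wild type each rested on 1 or 2 probes. In cerebellum chr11:18753941-18760118_R rose by 1.86 (SE 0.35, adjusted p = 0.00518), from -5.93, -5.53, -5.06 and -5.37 to -3.09, -3.92, -4.02 and -3.41. The region chr5:31862823-31871445_F rose by 1.59, chrX:6982891-7008528_R fell by 1.14 and chr13:29106280-29120376_F by 1.22. In cortex chr3:85783094-85783408_F fell by 1.68, chr6:42659063-42660071_R fell by 0.98, and a region near Ube2d2 rose by 1.12 and at least 1.36-fold. With 1 array left out, chr13:29106280-29120376_F lost its call in 6 and chr6:42659063-42660071_R in 5 of 8 fits.

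Within the Ttpa-/- cerebellum, chr2:94082835-94101939_R was 0.85 higher on the deficient diet (SE 0.16, adjusted p = 0.00644), with -0.22, -0.35, -0.47 and 0.24 against -0.91, -1.40, -0.96 and -0.92 on the supplemented diet, and 3 of its 5 probes were called. In chr14:20894857-20902507_R both probes were higher (0.84 and 0.77), as was 1810063B07Rik inside it (0.72). On the lower side, chr11:97505439-97522274_R fell by 1.06 with 3 of 5 tested probes called and chr5:31856417-31916414_F by 1.04 with 1 of 5. In Ttpa-/- cortex chr6:125330524-125410249_F, 138 bases from a probe for Cd9, fell by 2.26 (SE 0.62), the supplemented arrays reading -1.39, -0.81, -3.42 and -3.66. The region chrX:106029816-106082235_F fell by 1.09 with all 3 probes called, and chr6:128389484-128403407_R rose by 1.47. Oligodendrocyte markers were lower beside these cortical calls for 2 of 7 (Cldn11 and Mobp), with summed levels of 7.26 to 7.60 against 7.83 to 8.22, and their part in the result was not tested.

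The difference of the oxidative stress effect, cortical minus cerebellar, was called above 0 for 60 and below 0 for 80 intergenic probes of 4408 tested, against 2.19% and 1.48% of all tested probes. The balance turned with the scaling, to 90 above and 66 below with quantile normalization and to 14 and 6 with median scaling, so no direction holds for this list. Without cortical mouse 2, cortical mouse 4 or cerebellar mouse 4 of the Ttpa-/- mice on the deficient diet the count of 140 became 89, 229 and 91. The corresponding count of 45 for aging became 29, 28 and 23 without the second young cortical, second aged cortical and second young cerebellar mouse.

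Among long noncoding RNAs that carry a gene symbol, 21 of 60 listed were on the array and 15 to 17 were tested per comparison. In aging, oxidative stress and both diet comparisons 0 were called by limma, and at an unadjusted p under 0.05 the number ranged from 1 to 5. Between brain regions at 2 months 3 were higher in cortex (2900097C17Rik, Dlx6os1 and Gas5) and 5 lower (6720401G13Rik, Airn, Dleu2, H19 and Mirg). At 29 months 2 were higher (2900097C17Rik and Dlx6os1) and 3 lower (Airn, Dleu2 and H19). Gas5 hosts small nucleolar RNAs, and H19 and Airn are imprinted. For the nuclear RNA exosome and its adaptors 21 genes were on the array, 0 were called in those comparisons (1 to 8 at an unadjusted p under 0.05), and Exosc3, Zcchc7 and Zcchc8 were lower in cortex than in cerebellum at both ages.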

How the data were processed

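Gene expression was measured in mouse cerebral cortex and cerebellum with 40 1-colour Agilent arrays, in 10 groups of 4 arrays, each group with 4 mice. The authors deposited scanner files with processed signal intensity per spot, made with Agilent Feature Extraction (version 10.7.3.1 in the file headers, 10.1.1.1 in the submitters' processing notes), and a table of log2 values. The deposited log2 values matched log2 intensity scaled to the 75th percentile of each array and centred per probe, with a median absolute difference of 0.000915, and were used as an alternative. Here spots of one probe were averaged, control and outlier spots removed, and log2 processed intensity minus the 75th percentile of the array was taken. Of 55681 probes 55589 had values. A probe was called well above background from the scanner's flag. Genome positions are those of mm9 in the probe annotation, and probe sequences are those of the array files. No genome of that build was used here.

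One model over the 10 groups was fitted with lmFit and eBayes of limma 3.58.1 (R 4.3.3), 2-sided, with Benjamini-Hochberg adjustment over all probes tested in a comparison. Probes were tested where well above background on 4 of 4 arrays of at least 1 compared group, and called at an adjusted p under 0.05 and a fold over 1.5. Where a group had 0 of 4 arrays above background, the fold is a lower bound against the lowest signal well above background on each array. The number of arrays limits the precision, and p-values measure the spread between mice. Groups and slides together gave 14 coefficients of rank 10, so no slide term was fitted.

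Named probes were, per comparison, called probes whose arrays did not overlap, 1 per region, the 4 largest rises and falls for aging, oxidative stress and brain region and 2 and 2 otherwise. In addition the 6 brightest regions, up to 6 regions called for aging in both brain regions and up to 4 called on both strands were named, each with the nearest gene-symbol probe; 3 regions that this rule chose and 1 marker gene are not reported here. Members, gene lists and this rule were chosen with earlier results of these data known. Gene lists of cell types, of long noncoding RNAs with a symbol and of the nuclear RNA exosome were used, the probe with the highest mean standing for a gene. Alternatives were median scaling, quantile normalization, the authors' log2 values, normexp (offset 50), no or a stricter filter on dim probes, fits of the compared groups alone, a replicate block, the methods' t-test and leaving out each array. Scripts were tested on simulated data. Python 3.11.15, pandas 2.3.3, numpy 2.4.6 and matplotlib 3.10.9 were used for tables and figures.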

Additional observations from a re-analysis of the deposited data

Results flagged for a closer look

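Signals of single arrays were compared with the other 3 of their group for the named probes, and 11 of 154 groups held a value far from the rest, where chance alone gives about 1 in 20. In 2-month-old cortex these were the highest array of chr3:125556184-125556476_R (-1.73), the highest of chr8:89996710-90049453_F (-2.91) and the lowest of chr10:69669025-69686275_F (-5.43). In 2-month-old cerebellum the lowest array of chr10:69669025-69686275_F stood apart (0.851). In aged wild-type cortex on the normal diet they were the highest array of chr16:50715231-50841124_F (-3.17), the lowest of chr8:90000619-90061169_F (-4.96) and the highest of chr10:69679644-69682458_F (-4.32). In aged wild-type cerebellum on the normal diet they were the highest array of chr6:67155508-67216941_R (-2.81) and the lowest of chr2:180161459-180189542_R (-6.67). In Ttpa-/- mice they were the lowest cortical array on the deficient diet of chr16:50715231-50841124_F (-2.59) and the lowest cerebellar array on the supplemented diet of chr2:94082835-94101939_R (-1.40).

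The change of chr3:21973306-21974266_R with age differed between cortex and cerebellum by -0.73 (log2, cortical minus cerebellar change) in the limma test of that difference.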

How the results depend on the processing

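Among 72 named changes 1034 of 1246 alternative fits kept direction and call, 212 kept the direction without the call, and 0 reversed; 30 changes were called in every alternative that gave a value. The counts of called intergenic probes moved as follows. For aging in cortex 39 became 10 with normexp, 21 with the stricter filter, 22 with the 2 groups alone, and 12 or 87 by the methods' t-test with and without adjustment. For aging in cerebellum 138 became 84 with normexp, 220 without a filter and 245 by the unadjusted t-test. For oxidative stress in cortex 404 became 185 with normexp, 707 without a filter (391 higher and 316 lower) and 225 by the adjusted t-test; in cerebellum 410 became 140 with normexp and 214 by the adjusted t-test. Ttpa-/- mice on the supplemented diet, a different comparison chosen after seeing the data, gave 3 in cortex and 516 in cerebellum. For the diet in wild-type cortex 14 became 4 with median scaling or normexp, 8 with the stricter filter, 0 with the groups alone (208 at an unadjusted p) or the adjusted t-test, and 143 by the unadjusted t-test. In wild-type cerebellum 48 became 83 with quantile normalization, 88 without a filter, 0 with the groups alone (416 at an unadjusted p) or the adjusted t-test, and 339 by the unadjusted one. In Ttpa-/- cortex 260 became 123 with normexp, 0 with the groups alone (343 at an unadjusted p) and 37 by the adjusted t-test. In Ttpa-/- cerebellum 11 became 1 with median scaling, 7 with normexp, 27 without a filter, 0 with the groups alone (111 at an unadjusted p) or the adjusted t-test, and 86 by the unadjusted one. Between brain regions at 2 months 2138 became 1170 with normexp, 3254 without a filter and 1259 with the stricter filter, and at 29 months 1814 became 914, 5767 (4202 higher and 1565 lower in cortex) and 1023. The difference of the aging effect, 45, became 7 with median scaling, and that of oxidative stress, 140, became 20 with median scaling, 91 with normexp and 1778 without a filter. The cause was not tested.

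With 1 array left out, 31 of the 72 named changes lost their call in at least 1 fit and 9 in at least 5 of 8. The counts ranged from 21 to 43 (aging, cortex), 91 to 178 (aging, cerebellum), 237 to 527 and 299 to 557 (oxidative stress, cortex and cerebellum), 0 to 97 and 1 to 116 (diet, wild type), 117 to 401 and 3 to 32 (diet, Ttpa-/-), 2012 to 2235 and 1662 to 2010 (brain regions at 2 and 29 months), and 23 to 51 and 89 to 229 (differences of the aging and oxidative stress effects). With the replicate number as a block the counts were 40, 144, 420, 427, 16, 56, 275, 12, 2153, 1839, 43 and 161 in the same order, and no count moved by over 1.5 times. The samples were taken to share only a number: of 12 comparisons, same-numbered deviations correlated over 0.1 for all 4 pairs in 0 and for 3 of 4 in 5 (range over all pairs -0.446 to 0.664), and in those 5 comparisons 3 of 4 pairs matched best with their own number. Signal over background limits the dim probes, of which 5451 were measurable on 0 arrays.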
